A study of Mus musculus with 3 samples.

Results

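Tcf1 peaks that were found in regulatory T cells (Treg cells), had no counterpart in conventional CD4 T cells, and lay in the interior of genes are described here. Of the 3402 peaks in the Treg list, 457 met this description. They lie on chromosomes 1 to 19, overlap no peak of the conventional list by even 1 bp, and have no conventional midpoint within 1000 bp of their own. Their midpoints fall inside an annotated gene span and more than 1 kb from every gene end. The regions were chosen by their presence in the Treg list and absence from the conventional list, so their absence from the conventional list is a description of how they were picked and not a result.

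Tcf1 is the HMG-box DNA-binding protein encoded by Tcf7. It bends DNA at short A/T-rich sites, recruits beta-catenin or Tle corepressors, and is needed for T cell development and for the upkeep of naive and memory T cells. Treg cells restrain immune responses and depend on Foxp3. Peaks in the interior of genes can mark enhancers, internal promoters or background of the assay, and a peak list alone does not tell these apart.

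The study immunoprecipitated chromatin with a Tcf1 antiserum and sequenced 1 library of each kind. Treg cells (TCRb+, CD4+, CD25+, Foxp3-Cre-GFP+) and conventional cells (TCRb+, CD4+, CD25-, Foxp3-Cre-GFP-) came from spleens of wild type Foxp3-Cre-GFP mice aged 8 to 10 weeks, so all cells analysed here carried the same reporter allele. The conventional cells are called effector cells in their tissue label. A Tcf1-deficient library from CD4-Cre+ Tcf1 fl/fl mice was not analysed here. With 1 library per cell type and no read counts in the lists, sequencing depth is unknown, no difference between the cell types could be tested, and every interval below is an exact Clopper-Pearson 95% interval that covers counting error only. The limit given in the text for a count of 0 is 3 counts of the total, which is lower than the upper end of the exact interval drawn in the plots. Binding at a marker gene does not measure its expression, so the sort labels could not be checked against expression.

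Of the gene-body peaks, 53 lay within 1 kb of an annotated start site inside the gene, and 35 overlapped a promoter window, meaning the stretch 250 bases before to 50 after such a start. These are the regions for which sequence was at hand. The stretches below are the parts of 5 such windows that lie upstream of the start site and inside the peak, in RefSeq sequence of GRCm38.p6, written 5′ to 3′ on the strand of the gene. Wdr1 and Ccdc174 are shown because they hold the core TCF word CTTTGA, read here on the other strand as TCAAAG and set in capitals. Cic, Map4 and Srf are shown as windows under 3 of the wider peaks, and they hold no such word. Capitals mark the core word and nothing else.
Wdr1, chr5:38561700-38561855, minus strand: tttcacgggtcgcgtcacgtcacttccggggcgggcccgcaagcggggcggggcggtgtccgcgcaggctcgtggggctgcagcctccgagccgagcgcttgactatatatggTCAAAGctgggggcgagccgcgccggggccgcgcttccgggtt
Ccdc174, chr6:91877913-91878052, plus strand: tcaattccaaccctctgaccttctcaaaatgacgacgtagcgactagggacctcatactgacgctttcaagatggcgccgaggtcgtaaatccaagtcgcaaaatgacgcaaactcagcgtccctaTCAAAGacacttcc
Cic, chr7:25281942-25282178, plus strand: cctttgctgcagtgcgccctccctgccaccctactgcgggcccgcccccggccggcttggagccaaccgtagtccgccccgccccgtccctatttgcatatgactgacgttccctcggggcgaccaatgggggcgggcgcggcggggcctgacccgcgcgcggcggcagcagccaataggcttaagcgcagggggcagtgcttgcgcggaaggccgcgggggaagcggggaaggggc
Map4, chr9:109931524-109931773, plus strand: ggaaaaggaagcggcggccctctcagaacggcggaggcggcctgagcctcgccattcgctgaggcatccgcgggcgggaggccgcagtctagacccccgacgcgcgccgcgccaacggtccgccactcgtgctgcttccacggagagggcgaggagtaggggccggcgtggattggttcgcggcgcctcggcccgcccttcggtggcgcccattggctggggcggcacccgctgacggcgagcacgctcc
Srf, chr17:46556163-46556252, minus strand: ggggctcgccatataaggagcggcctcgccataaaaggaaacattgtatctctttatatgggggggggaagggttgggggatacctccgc

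The printed stretches differ in base composition. G and C made up 72.4% of the bases at Wdr1, 73.4% at Cic, 74.0% at Map4, 55.6% at Srf and 49.3% at Ccdc174. Wdr1 encodes a factor that speeds actin filament disassembly, Cic a transcriptional repressor, Map4 a microtubule-associated protein and Srf the serum response factor. The Wdr1 peak (chr5:38561552-38561855) had its midpoint 4 bp from the start site, and the Ccdc174 peak (chr6:91877913-91878156) had it 19 bp away. The peak at Cic (chr7:25281942-25282487) was 546 bp wide with its midpoint 35 bp from the start, the peak at Map4 (chr9:109931313-109931879) was 567 bp wide, and the peak at Srf (chr17:46555512-46556252) was 741 bp wide.

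The core TCF word was found on either strand in 3 of the 37 promoter windows under Treg-only gene-body peaks, those of Wdr1, Ccdc174 and Shisa5, or 8.11% (1.70% to 21.9%). It was found in 17 of 79 windows under shared gene-body peaks (21.5%, 13.1% to 32.2%), in 18 of 110 under conventional-only gene-body peaks (16.4%, 10.00% to 24.6%) and in 15.9% of all 31396 promoter windows of 300 bases. The interval for the Treg-only peaks contains each of these shares. The longer word CTTTGAT was present in 1 of the 37 windows, that of Ccdc174, in 8 of 79 under shared peaks and in 3 of 110 under conventional-only peaks. The core word read backwards, AGTTTC, which has the same bases but is no TCF site, was present in 4 of 37 windows (10.8%), against 12.7% under shared peaks, 8.18% under conventional-only peaks and 15.9% of all windows. Thus the TCF word was no more frequent in these 37 windows than its reversed form, a comparison of 3 windows with 4. In 436 windows under Treg-only peaks at gene ends, the shares were 12.2% for the core word and 12.6% for its reversed form. The 37 windows lie under 35 peaks, and some overlap each other, while the intervals treat them as separate.

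The Klf/Sp and ETS words were the most frequent of the 14 in the 37 windows, followed by the E2A E-box. The Klf/Sp word GGGCGGGG was in 14 windows, 37.8% (22.5% to 55.2%), against 49.4% under shared peaks, 36.4% under conventional-only peaks and 17.8% of all windows. The ETS word GGAAGT was in 11 windows (29.7%, 15.9% to 47.0%), against 32.9%, 32.7% and 23.9% in the same order. The CRE word TGACGTCA was as frequent as the reversed TCF word, in 4 windows (10.8%, 3.03% to 25.4%), those of Aptx, Shisa5, Csnk1g2 and Tmem39a, against 2.53% under shared peaks, 6.36% under conventional-only peaks and 1.83% of all windows. Among the 3 peak classes the quartiles of GC content overlapped. They were 58.7% and 67.3% under Treg-only, 58.5% and 71.5% under shared, and 55.7% and 68.9% under conventional-only gene-body peaks. Over all windows they were lower, at 46.0% and 62.0%. Median GC content was 63.3% in windows under Treg-only gene-body peaks, 65.0% under shared and 61.5% under conventional-only peaks, and 53.0% over all windows. The number of CpG dinucleotides in a window was 23.0, 27.0, 23.5 and 7.0 at the median in the same order. Of these words, the Klf/Sp share had the order of the GC medians among the 3 peak classes, and the ETS and CRE shares did not. The part of base composition in the word shares was not tested.

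The E2A E-box CAGCTG was in 7 windows (18.9%, 7.96% to 35.2%), against 7.59% under shared peaks, 11.8% under conventional-only peaks and 16.3% of all windows. The Runx word TGTGGT was in 4 windows (10.8%), the ISRE GAAANNGAA in 3 (8.11%), the GATA word AGATAA in 2 (5.41%), and the AP-1 word TGANTCA and the STAT word TTCCNGGAA in 1 each (2.70%). Over all windows these shares were 16.7% for Runx, 8.52% for ISRE, 11.2% for GATA, 7.84% for AP-1 and 1.18% for STAT. The Fox word TGTTTAC and the NF-kappaB word GGGAATTTC were in 0 of 37 windows, which allows a share of up to 8.11%. All words were searched on both strands, the longer TCF word contains the core word, and a match is a description of the letters and not a binding site. The 37 windows cover only peaks at annotated starts, and the sequence of the other Treg-only gene-body peaks was not analysed here.

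**Figure D1:**
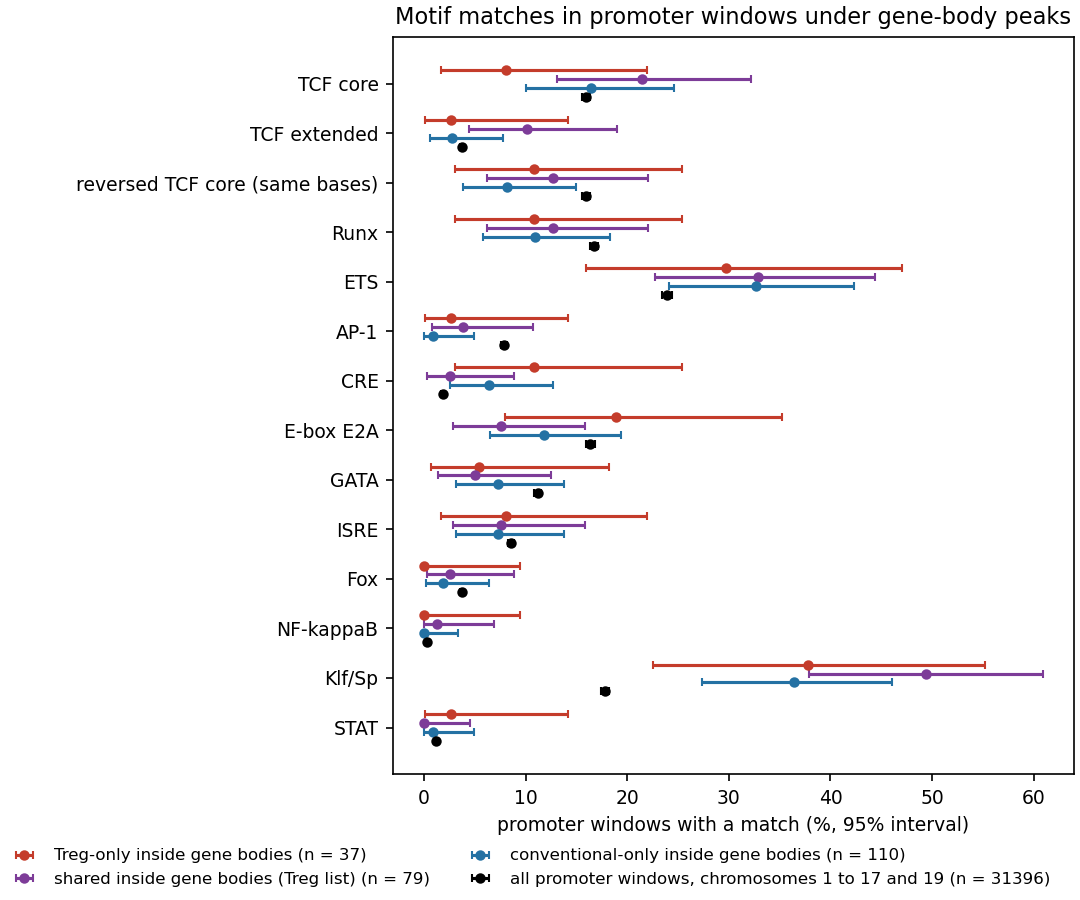
Share of promoter windows with a match to each of 14 sequence words on either strand (percent, with 95% Clopper-Pearson intervals), for windows under Treg-only, shared and conventional-only gene-body peaks and for all windows. Klf/Sp and ETS are the most frequent words in windows under the Treg-only peaks, and the TCF core is at 8.11%. A match can lie in a part of the window outside the peak.

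Fewer Treg-only peaks lay at gene ends, within 1 kb of one, than in the other classes: 537 of 1330 (40.4%, 37.7% to 43.1%), against 1043 of 1903 shared peaks of the Treg list (54.8%, 52.5% to 57.1%) and 1344 of 2499 conventional-only peaks (53.8%, 51.8% to 55.8%). The shares in gene bodies were closer together, with intervals that overlap. Inside gene bodies lay 457 of 1330 Treg-only peaks (34.4%, 31.8% to 37.0%), 570 of 1903 shared peaks of the Treg list (30.0%, 27.9% to 32.1%) and 807 of 2499 conventional-only peaks (32.3%, 30.5% to 34.2%). Of the 1043 Treg peaks in gene bodies 43.8% were Treg-only, against 40.4% of the 3290 Treg peaks anywhere on chromosomes 1 to 19, and of the 1392 conventional peaks in gene bodies 58.0% were conventional-only. The rule used these contrasts, and nothing is read from them. A further 16 Treg peaks in gene bodies overlapped no conventional peak but had a conventional midpoint within 1000 bp.

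Treg peaks stood close to both limits of the rule, on either side. The members nearest to a conventional midpoint lay in St8sia4 (1048 bp away), Rara (1202 bp) and Cnga1 (1273 bp), and were 282, 290 and 272 bp wide. Treg peaks that just failed lay in Siah2 (936 bp) and Gm40365 (917 bp), and were 305 and 322 bp wide, each wider than these 3 members. The members nearest to a gene end lay in Gng7 (1004 bp), Gm51955 (1010 bp) and Gm26812 (1018 bp), and were 262, 252 and 241 bp wide. The distance was 990 bp for the excluded peak in L3mbtl3, 940 bp in Gm31718 and 936 bp in the span shared by Gm29417 and Cxxc5, and these peaks were 285, 541 and 255 bp wide.

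Treg-only gene-body peaks were narrow. Their median width was 317 bp (quartiles 273 and 374 bp), close to the medians of 328 bp for Treg-only peaks at gene ends and 308 bp for those between genes. Shared peaks in gene bodies had a median of 400 bp in the same list, and conventional-only gene-body peaks had 376 bp. Of the Treg-only gene-body peaks 135, or 29.5% (25.4% to 34.0%), were narrower than 279 bp, the width of the narrowest conventional peak, against 57 of 570 shared gene-body peaks (10.0%, 7.66% to 12.8%). Width was measured in the library that chose the peaks, and the lists have different minimum widths, so the widths are given as a description.

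**Figure D2:**
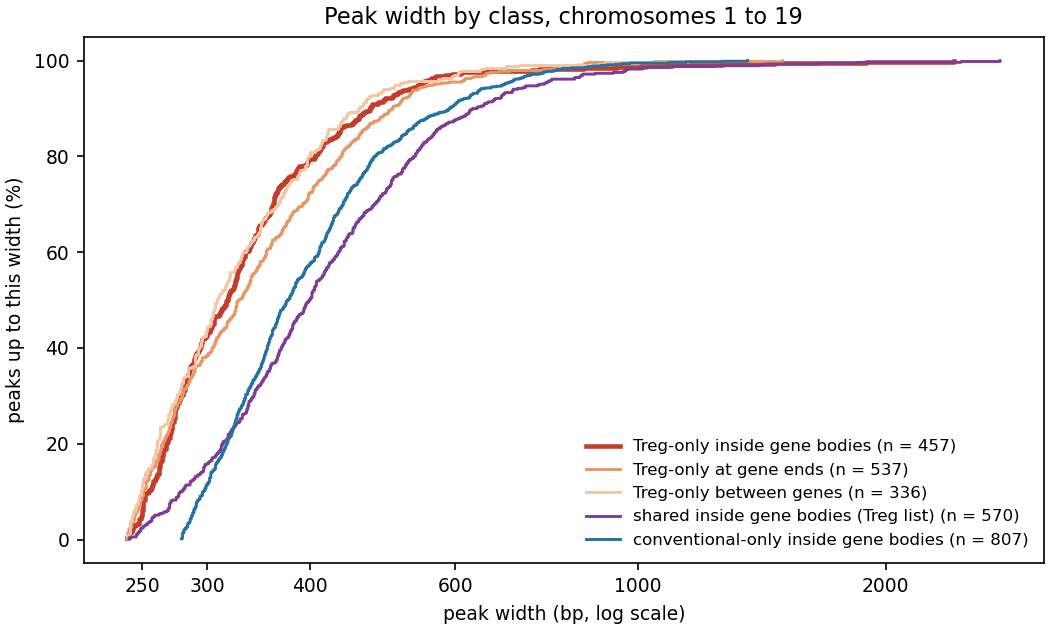
Cumulative share of peaks (percent) up to each width (bp, log scale) for 5 classes of peaks on chromosomes 1 to 19. The 3 Treg-only classes run together to the left, with medians of 317, 328 and 308 bp, and the shared gene-body peaks lie to the right with a median of 400 bp.

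The 10 widest members were a mixed group, and several lay outside well-described genes. The widest, 2418 bp (chr17:13550722-13553139), lay in the long noncoding RNA gene 2700054A10Rik, and the next, 1891 bp (chr13:74528695-74530585), in the pseudogene Gm20590. Predicted genes on chromosome 8 held 2 of them, at Gm51573 (1270 bp wide) and Gm51572 (943 bp), and the neighbouring Gm51571 held 2 narrower members. Igh, the locus of antibody heavy chains, held a peak of 759 bp (chr12:113424428-113425186).

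The remaining wide members lay in named protein-coding genes. The peak in Stam2 (1468 bp, chr2:52696525-52697992), an endosomal sorting adaptor, lay 45244 bp from the nearest conventional midpoint. The peak of 1084 bp in the cadherin gene Cdh18 (chr15:22799800-22800883) was 3043115 bp from the nearest one. Smo, the signal transducer of the Hedgehog pathway, had a peak of 1008 bp (chr6:29747920-29748927) 1749 bp from a gene end. The peak in Dennd4a (860 bp) lay 396 bp from a start site of the lncRNA gene Gm36459, and that in Srf lay 281 bp from a start of Srf. Across the 10 widest members the nearest conventional midpoint lay between 7065 bp (Gm20590) and 3043115 bp (Cdh18) away.

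The host genes were long. Of the 457 peaks, 392 lay in a protein-coding gene, 56 in an lncRNA gene alone and 9 in other genes alone, and the protein-coding hosts numbered 372. Of these hosts, 143 spanned 100 kb or more (38.4%, 33.5% to 43.6%), against 2313 of all 20665 protein-coding genes (11.2%). Genes of that length make up 59.1% of all protein-coding span. For the 392 peaks in protein-coding genes the median host span was 80.6 kb, against 71.4 kb for shared and 79.8 kb for conventional-only gene-body peaks. A Treg-only gene-body peak lay in 1.80% of all protein-coding genes, in 3.35% of those that span at least 20 kb and in 6.18% of those that span at least 100 kb.

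Along the host gene, Treg-only peaks were spread more evenly than the other classes in these lists. For 316 peaks in a protein-coding gene with a known strand, the first 20% of the span from the 5′ end held 76 (24.1%, 19.4% to 29.2%) and the last 20% held 45 (14.2%, 10.6% to 18.6%). In shared gene-body peaks the first 20% held 31.6% (27.1% to 36.5%) and the last 10.2% (7.39% to 13.6%), and in conventional-only ones these were 32.3% (28.5% to 36.3%) and 10.9% (8.51% to 13.8%). The Treg-only interval overlaps both others, narrowly at the 5′ end and broadly at the 3′ end. An annotated start site lay within 1 kb of 53 of the 357 Treg-only gene-body peaks whose host is in the promoter table (14.8%, 11.3% to 19%), against 98 of 448 shared (21.9%, 18.1% to 26.0%) and 127 of 643 conventional-only gene-body peaks (19.8%, 16.7% to 23.0%).

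**Figure D3:**
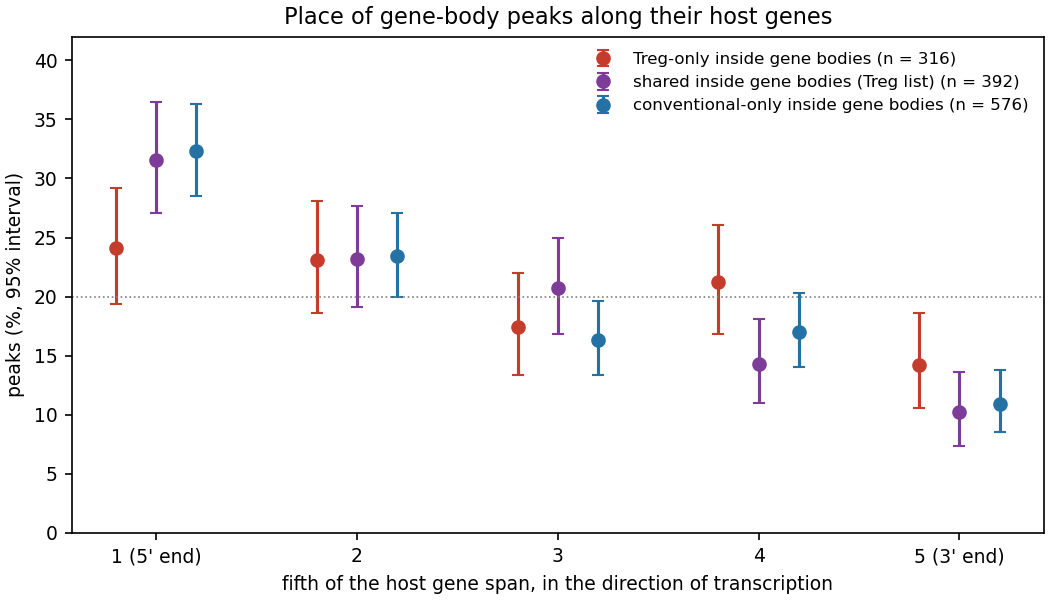
Share of gene-body peaks (percent, with 95% Clopper-Pearson intervals) in each 20% of the host gene span, in the direction of transcription, for Treg-only, shared and conventional-only peaks. The 5′-most bin holds 24.1% of Treg-only, 31.6% of shared and 32.3% of conventional-only peaks, and the dotted line marks 20%.

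Most host genes had no conventional Tcf1 peak anywhere in their span, and the reverse share, for hosts of conventional-only peaks, was close to theirs. How many of all protein-coding genes lack a conventional peak is not given here, so this is not read as a trait of the hosts. Of the 372 protein-coding hosts, 100 carried a conventional peak in the span (26.9%, 22.4% to 31.7%), 61 of them a conventional-only peak, and 54 hosts carried a shared Treg peak (14.5%, 11.1% to 18.5%). Of the 619 hosts of conventional-only gene-body peaks, 172 carried a Treg peak (27.8%, 24.3% to 31.5%). For 133 hosts (35.8%) no conventional peak lay within 100 kb of the span. The hosts of Treg-only and of conventional-only gene-body peaks had 47 genes in common, which is 12.6% of the Treg-only hosts and 7.59% of the conventional-only hosts. Over all 20665 protein-coding genes, 619 had a conventional-only gene-body peak, a smaller share than the 12.6% of Treg-only hosts. The hosts are longer than genes at large, and the part of length in this was not tested. Measured from the peak itself, the nearest conventional midpoint was 84.2 kb away at the median (quartiles 20.5 and 308 kb), and for 43 peaks it was more than 1 Mb away. From conventional-only gene-body peaks the nearest Treg midpoint was 70.5 kb away at the median (quartiles 18.7 and 214 kb). The rule sets the lower bound of these distances. It also bears on the share of hosts with a conventional peak in the span. That share was 29.5% with no conventional midpoint within 200 bp of a member, and 21.9% with none within 5000 bp.

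Single peaks were the rule. A single member lay in 351 hosts, 2 members in 16, 3 in 4 and 4 in 1. Ulk4, which encodes a member of the Unc-51-like kinase family, had 4 members and no conventional peak in its span of 321706 bp. They lay as neighbouring pairs: peaks 610 and 295 bp wide near 76.1% and 75.8% of the span from the 5′ end, and peaks 255 and 248 bp wide near 18.5% and 16.9%. Cdh18 had 3 members between 22.2% and 27.1% of its span, 530, 302 and 1084 bp wide, with no conventional peak within 2365965 bp of the gene.

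Itpkb, which encodes an inositol trisphosphate kinase needed for T cell development, combined Tcf1 peaks of every class. Its 3 members were 326, 282 and 405 bp wide, and 2507, 1332 and 3014 bp from the nearest conventional midpoint. The Treg list had 2 shared peaks in Itpkb besides, and the conventional list had 6 peaks there, of which 4 were conventional-only. The members lay 33680, 34855 and 60090 bp from the 5′ end of Itpkb. Its conventional-only peaks lay at 1951, 5653, 36187 and 57076 bp, so some stood near a member and others did not. That they do not overlap the members follows from the rule.

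Tiam1, an exchange factor that activates Rac, had 3 members, 283, 303 and 346 bp wide, and 1 conventional-only peak more than 100 kb away from them. Cdh23, a cadherin gene of the inner ear hair bundle, also had 3 members, and 2 of them lay in Vsir as well, a gene inside its span. Vsir encodes VISTA, an inhibitory receptor of the immunoglobulin family found on T cells. The members inside Vsir were 251 bp (chr10:60351885-60352135) and 291 bp wide (chr10:60390379-60390669), and Vsir also held 1 conventional-only peak. Vsir falls under no naming rule and was singled out once its peaks were known.

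**Figure D4:**
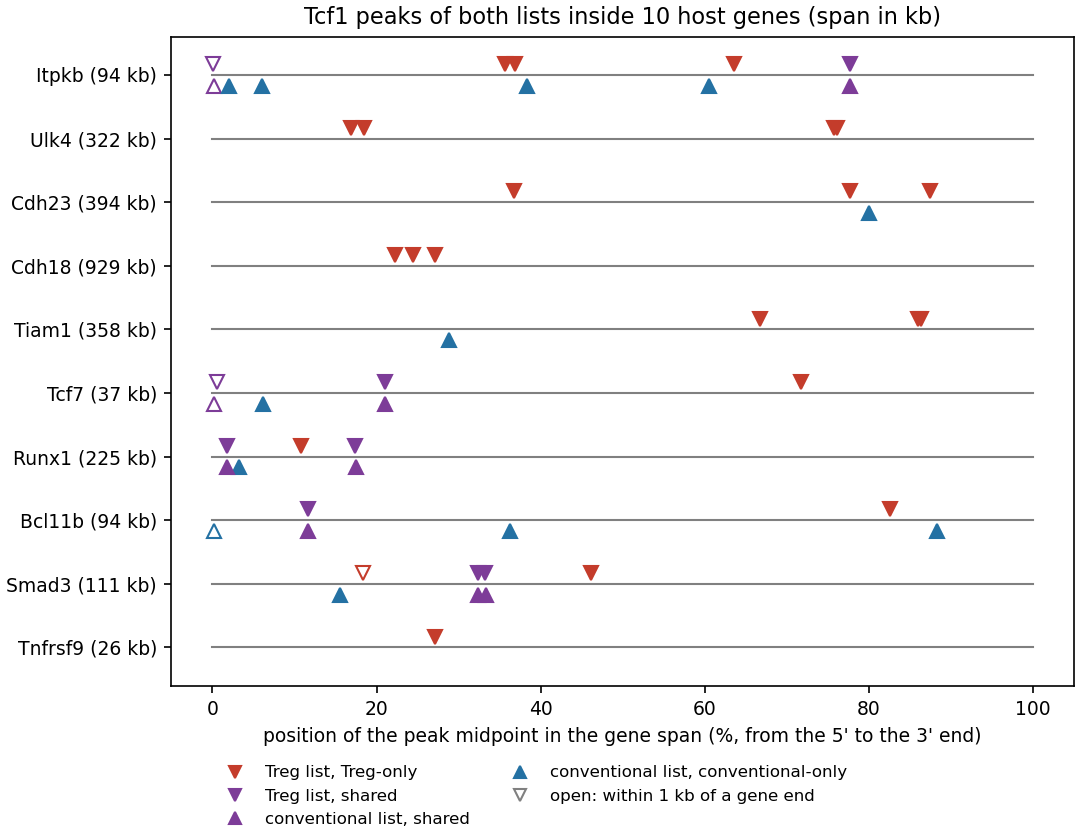
Midpoints of Treg peaks (above each line) and conventional peaks (below) as percent of the gene span from the 5′ to the 3′ end, in the 5 hosts with 3 or more members and in 5 listed genes chosen as examples. Filled red markers are the Treg-only gene-body peaks, and open markers lie within 1 kb of a gene end.

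Of 494 genes on 17 lists, which cover T cell functions, general functions and other cell types, 29 had a member. The shares of the lists stand beside the 1.80% of all protein-coding genes and the 6.18% of long genes. Taken singly, the exact interval of each list contains 6.18%, except that of small GTPase regulators and the cytoskeleton, which starts at 6.19%. The 1.80% lies below the intervals of that list and of the naive and memory, cytokine receptor and JAK-STAT, and chromatin regulator lists. The intervals of the other lists contain it. Over all 20665 protein-coding genes, 372 had a Treg-only, 619 a conventional-only and 462 a shared gene-body peak. Counts of these classes in a list thus start from sets of unlike size, and no contrast between them was tested. The Treg-only gene-body peaks came to 0.398 per Mb of protein-coding span over the genome.

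The gene for Tcf1 itself was a host. Tcf7 (chr11:52246527-52283383) had a member of 359 bp at chr11:52256742-52257100, at 71.8% of the span from the 5′ end and 18725 bp from the nearest conventional midpoint. The other 2 Treg peaks in the span were shared, and the conventional list had a conventional-only peak at 6.20% of the span. Fbxw11, a component of the ubiquitin ligase that marks beta-catenin for destruction, had a member of 595 bp (chr11:32725949-32726543) and no conventional peak within 22325 bp of its span. These were the 2 of 40 genes of the Wnt and TCF pathway with a member (5.0%, 0.611% to 16.9%), while 8 had a conventional-only and 8 a shared gene-body peak.

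Among genes of naive and memory T cells 3 of 25 had a member (12.0%, 2.55% to 31.2%), and 11 had a conventional-only gene-body peak. They were Tcf7, Foxo1, a forkhead factor that drives Il7r, and Ets1, an ETS factor of lymphocytes. The Foxo1 peak (278 bp, chr3:52328993-52329270) lay 60147 bp from a conventional midpoint. The Ets1 peak (293 bp, chr9:32741116-32741408) lay only 2606 bp from one, and Ets1 had 3 peaks in each list, 1 of the Treg peaks being shared.

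The Treg signature had a member at 2 of 35 genes (5.71%, 0.700% to 19.2%). Of the 35, 1 had a conventional-only and 5 a shared gene-body peak. Without peaks narrower than 279 bp, the narrowest conventional width, 1 gene of the list, Il2rb, kept a member. Il2rb encodes the beta chain of the receptor for interleukin 2, the cytokine on which Treg cells depend. It had a member of 430 bp in the middle of the gene (chr15:78494609-78495038), and no conventional peak within 16675 bp of its span. Tnfrsf9, which encodes the costimulatory receptor 4-1BB, had a member of 260 bp (chr4:150927068-150927327), 7042 bp from its 5′ end and 802 bp from an internal start site, with no conventional peak within 10104 bp of its span. Foxp3 lies on the X chromosome and was outside the rule.

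Of the cytokine receptor and JAK-STAT list, 4 of 39 genes had a member (10.3%, 2.87% to 24.2%), and all 4 encode parts of signalling chains inside the cell. Smad4, the common partner of the receptor-activated Smads in TGF-beta signalling, had 2 members, 561 and 358 bp wide, 11880 and 10988 bp from the nearest conventional midpoint. Smad3, a receptor-activated Smad, had a member of 318 bp at chr9:63706393-63706710, at 46.2% of the span and thus 3′ of its 2 shared peaks at 33.2% and 32.4%. Stat5b, which carries the interleukin 2 signal to the nucleus, had a member of 306 bp (chr11:100846022-100846327) beside 1 shared peak. Pias1, an inhibitor of activated STAT proteins, had a member of 272 bp and no conventional peak within 66424 bp of its span.

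Among activation transcription factors 2 of 30 had a member (6.67%, 0.818% to 22.1%). Nfkb1, which encodes the p105 and p50 forms of NF-kappaB, had a peak of 550 bp (chr3:135665526-135666075), and no conventional peak lay within 145206 bp of the gene. Nfatc1, a calcium-regulated factor, had one of 285 bp and no conventional peak within 136387 bp of its span. In both genes this was the only gene-body Tcf1 peak of either list, and members were picked for absence from the conventional list. Of the 30 genes, 3 had a conventional-only and 4 a shared gene-body peak.

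Runx1, a partner of Foxp3 in Treg cells, was the single helper lineage gene of 29 with a member (3.45%, 0.0873% to 17.8%). Its peak of 322 bp (chr16:92801600-92801921) lay between 2 shared peaks, 14945 bp from the nearest conventional midpoint. Of 30 other T cell transcription factors 2 had a member (6.67%, 0.818% to 22.1%). Bcl11b, which fixes T cell identity, had a peak of 297 bp that lay 5349 bp from a conventional midpoint. Erg, an ETS factor, had a peak of 388 bp and no conventional peak within 96046 bp of its span. Of the T cell receptor and costimulation genes, Cd2 alone of 40 had a member (2.50%, 0.0633% to 13.2%), of 331 bp at chr3:101280357-101280687, against 9 with a conventional-only gene-body peak.

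Regulators of small GTPases and the cytoskeleton had a member at 6 of 37 genes (16.2%, 6.19% to 32.0%), namely Arhgap15, Rapgef1, Rapgef2, Rasa3, Tiam1 and Ablim1. They held 9 members, 1.31 per Mb of span, against 0.398 over all genes, and their conventional-only and shared gene-body peaks came to 2.04 and 1.17 per Mb, against 0.731 and 0.504. All 3 classes were thus denser in this list than over all genes. The members in this list were mostly narrow. Without peaks narrower than 279 bp, the narrowest conventional width, 1 gene of the list, Tiam1, kept a member. Among Treg peaks at or above the median width of their list, 0 did. Over all lists together, 21 and 8 of the 29 listed genes kept a member in the same order. Ablim1, an actin-binding protein, had 2 members of 270 and 250 bp beside 2 shared peaks. Arhgap15, a GTPase-activating protein for Rac, had a member of 274 bp that lay 812061 bp from the nearest conventional midpoint. Rapgef2, an exchange factor for Rap proteins, had a member of 263 bp that lay 11300 bp from one.

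Chromatin regulators had a member at 4 of 38 genes (10.5%, 2.94% to 24.8%). Dnmt3a, a de novo DNA methyltransferase, had one of 318 bp at chr12:3890964-3891281, 622 bp from an internal start site, and no conventional peak within 168351 bp of its span. The histone deacetylase genes Hdac4 and Hdac9 differed in their surroundings: the Hdac4 peak (405 bp) lay in a gene with 5 conventional-only peaks, and the Hdac9 peak (327 bp) was 765000 bp from any conventional midpoint. Arid1a, a subunit of the BAF remodelling complex, had a member of 343 bp 2686 bp from a conventional midpoint. Of 27 cell cycle genes, Cdkn1b, which encodes the inhibitor p27, had a member, 283 bp wide and 1300 bp from its 5′ end. The nearest conventional midpoint lay 1360 bp from this member and 60 bp outside the span of Cdkn1b. With no conventional midpoint allowed within 5000 bp of a member, 0 cell cycle genes kept one.

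Most lists for other cell types had no member, and their limits did not set them apart from all protein-coding genes. None of the 79 distinct genes of the CD8 and NK cell, B cell, myeloid and liver lists had a Treg-only gene-body peak. This allows a share of up to 3.80%, which includes the 1.80% of all protein-coding genes. None of these genes had a conventional-only or shared gene-body peak either. None of the 20 housekeeping genes had a member, which allows up to 15.0%. The summed spans were 0.215 Mb for housekeeping, 0.227 Mb for CD8 and NK cells, 0.397 Mb for liver, 0.457 Mb for myeloid cells and 1.13 Mb for B cells. The neuron list had a member at 2 of 19 genes (10.5%, 1.30% to 33.1%), an interval that contains both the 1.80% and the 6.18%. Its genes span 13.2 Mb, which gives 0.152 members per Mb, against 0.398 over all genes. The 2 genes were Dlg4, with a peak of 491 bp, and Cntnap2, with a peak of 373 bp. The Cntnap2 peak lay 1307385 bp from the nearest conventional midpoint.

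**Figure D5:**
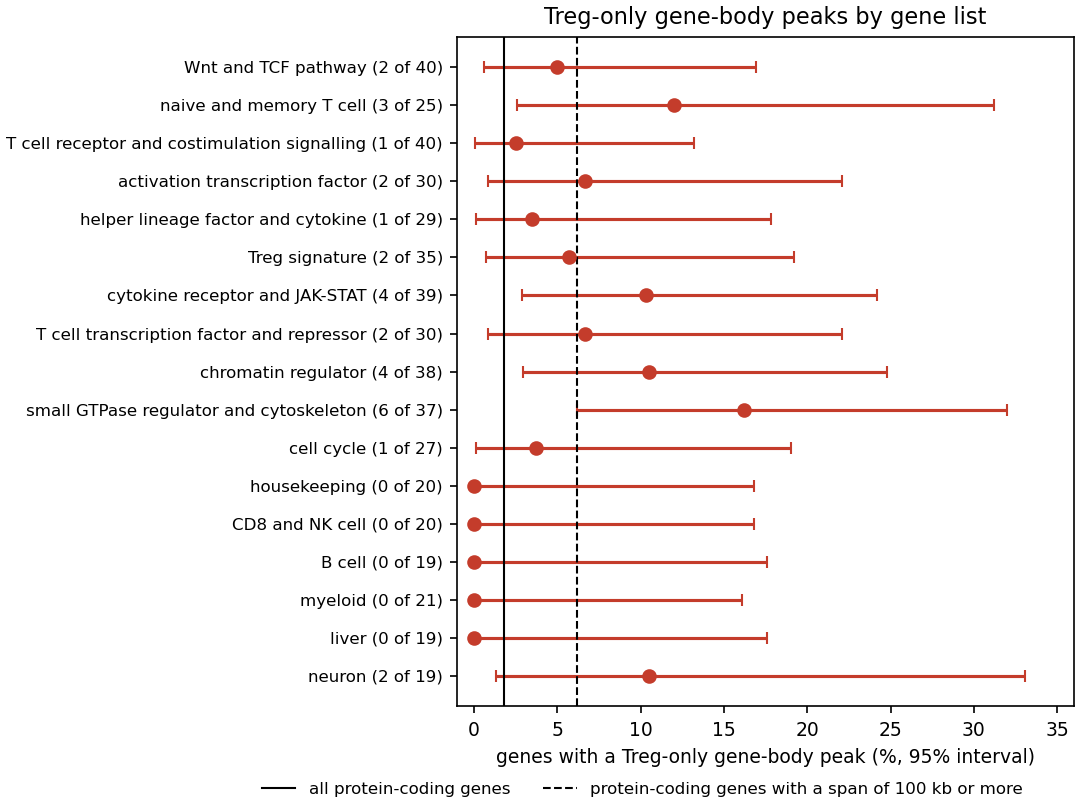
Share of genes in each of 17 lists with a Treg-only gene-body peak in the span (percent, with 95% Clopper-Pearson intervals); counts stand beside the names. The solid line marks all protein-coding genes (1.80%) and the dashed line those that span at least 100 kb (6.18%).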

How the data were processed

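Tcf1 binding was measured by chromatin immunoprecipitation and sequencing. The authors deposited a peak list for each of 2 libraries, with chromosome, start and end per peak and no height, fold, p-value or read count, so precision set by depth is unknown. The deposited positions use mm10, per the submitters' processing notes, which mention Bowtie2 (2.3.4.1), MACS2 (2.1.1) and also FastQC, giving no role for any. What filter the lists passed is not stated in the labels. A threshold that depends on depth can change which peaks appear in 1 list alone, and what part of the Treg-only peaks came about that way was not tested.

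Positions are printed 1-based. Peaks were classed with scipy 1.17.1, pandas 2.3.3 and numpy 2.4.6 under Python 3.11.15, and drawn with matplotlib 3.10.9. Gene spans came from a RefSeq table of GRCm38.p6, whose chromosomes are those of mm10. Strand, start sites and promoter windows came from a RefSeq table that held a strand for 297 of the 372 protein-coding hosts and no window on chromosome 18. Exons and introns were not used here. The planned motif search over whole peaks was replaced by one over promoter windows, since no genome sequence was used here. Of 494 listed genes 493 were matched by symbol. Genes were named by a rule: the 10 widest members, genes with 3 or more members, up to 4 genes per list by number and width of members, and the 3 peaks on either side of each limit of the rule. One peak that this rule names is not reported here. Rapgef1, Rasa3 and genes named for a sequence match fall outside this rule. Members and lists were chosen with earlier results of these data known. Classing was tested on simulated data: all 600 planted peaks were recovered in their class and place.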

Additional observations from a re-analysis of the deposited data

How the results depend on the processing

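No paired analysis was possible because each cell type has 1 library. Of the main values recomputed under the alternatives, 68 stayed within their counting interval, or within 1.5 times for counts, and 14 moved further. The 68 include an alternative that asked for a larger overlap before a peak counted as shared. It left every main value unchanged and could hardly do otherwise. A peak that failed it stayed excluded when a conventional midpoint lay within 1000 bp. With 5 kb as the gene end limit, 303 members remained, the share of Treg-only peaks in gene bodies was 22.8% and 8.09% of members lay within 1 kb of a start site. With 500 bp the share was 38.2% and 21.8% lay near a start site. With protein-coding spans alone the share was 30.8%. In the wider part of the Treg list, at or above its median width, 124 members in 105 protein-coding hosts remained, with 8 listed genes, a median width of 440 bp and 29.3% of Treg-only peaks in gene bodies. The lower counts, the greater median width and the shares under other gene limits follow from how these alternatives were built. The 29.3% among wider peaks does not, and its cause was not tested. It lies below the 34.4% of the main rule, and below the 30.0% of shared and 32.3% of conventional-only peaks of all widths. Shares among the wider peaks of those 2 classes are not given here. With no conventional midpoint within 5000 bp, 21.9% of hosts carried a conventional peak, and counting conventional peaks up to 10 kb outside the span gave 36.3%. Without peaks narrower than the narrowest conventional peak, an alternative chosen after seeing the data, 322 members remained with a median width of 346 bp. The planned motif windows of other lengths were not run. Depth is unknown, and the detection limits of the lists could not be compared.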

Other observations

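The hosts that held exactly 2 Treg-only gene-body peaks, picked out after their values were seen, included genes of immune interest. Rara, the retinoic acid receptor alpha, had members of 290 and 311 bp beside 1 shared peak, and Akna, an AT-hook gene of lymphocytes, had 2 members beside 1 shared and 1 conventional-only peak. Ing1, a reader of histone methylation, had 2 members of 304 and 292 bp, 693 and 138 bp from start sites. Outside immune function, Cadps2, Nell1, Tusc3 and Sdhaf3 each had 2 members and no conventional peak within 100 kb of the span.

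By chromosome, the share of Treg gene-body peaks that were Treg-only was highest among chromosomes 1 to 19 on chromosome 8, at 28 of 46 (60.9%, 45.4% to 74.9%), and lowest on chromosome 19, at 11 of 36 (30.6%, 16.3% to 48.1%), and these intervals overlap. On the sex chromosomes, outside the rule, 16 of 25 Treg gene-body peaks on X and 4 of 5 on Y were Treg-only, and the conventional list had 6 and 2 conventional-only gene-body peaks there.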
